A study of Caenorhabditis elegans with 6 samples.

Results

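The genes described here are the heat-inducible small heat shock protein genes hsp-16.1, hsp-16.2, hsp-16.11, hsp-16.41, hsp-16.48 and hsp-16.49, the heat-inducible HSP70 genes hsp-70, F44E5.4 and F44E5.5, and hsf-1, the gene of their main transcription factor. They were chosen by gene symbol, and each gene was read from its annotated transcript cluster with the highest mean over the 6 arrays, a transcript cluster being the group of probes that stands for 1 transcribed locus. All 10 genes were found, on 7 rows, among 26192 named clusters. Only hsp-16.2, hsp-16.41, hsp-70 and hsf-1 had a row of their own. The other 6 genes shared 3 rows, annotated with hsp-16.1 and hsp-16.11, with hsp-16.48 and hsp-16.49, and with F44E5.4 and F44E5.5, so each such pair is described as 1 value and its genes cannot be told apart.

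The samples were whole Caenorhabditis elegans hermaphrodites of the wild-type strain N2, which had grown on bacterial plates for 48 h to the L4 larval stage. The C-SPION group (3 arrays) was then held for 24 h, at 20 °C and in 50% M9, a salt solution, with citrate-coated superparamagnetic iron oxide nanoparticles at 500 µg/mL. The control group (3 arrays) was held for the same time in the same buffer without particles. Both groups therefore shared 24 h in buffer, and no animals kept on plates were analysed here. All values are log2 signals after RMA, so they are relative to the other transcripts on the same array, and in whole-animal RNA fewer cells of a type and less RNA per cell cannot be told apart.

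When proteins unfold, HSF-1 is activated, binds heat shock elements in DNA and switches on chaperone genes. The hsp-16 genes encode small chaperones of the alpha-crystallin family, which hold unfolding proteins and keep them from clumping, and the HSP70 proteins refold their clients with ATP. In unstressed worms the hsp-16 genes are nearly silent, and hsp-16.2 is widely used as a reporter of heat and of other stresses. The hsp-16 genes lie in divergently transcribed pairs, and hsp-16.1 with hsp-16.48 is a copy of hsp-16.11 with hsp-16.49. In the reference gene order hsp-16.1, hsp-16.48, hsp-16.49 and hsp-16.11 follow each other with no other protein-coding gene between, and so do hsp-16.2 and hsp-16.41, and F44E5.4 and F44E5.5.

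The hsp-16 genes other than hsp-16.41, and hsp-70, were high in all 3 C-SPION arrays, whereas the control arrays disagreed with each other. Control 3 was above every C-SPION array, and controls 1 and 2 were below all of them. On hsp-16.2 and hsp-70 control 3 was only just above the highest C-SPION array (11.70 against 11.65, and 7.15 against 7.05). F44E5.4/F44E5.5 and hsf-1 were the only rows on which all C-SPION arrays lay above all controls. No row passed the comparison of C-SPION with control.

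The row shared by hsp-16.1 and hsp-16.11 had log2 signals of 11.62, 11.61 and 11.68 in C-SPION arrays 1, 2 and 3, against 7.81, 9.25 and 12.28 in controls 1, 2 and 3. The C-SPION arrays lay within 0.07 of each other, while the controls spanned 4.47 and control 3 stood above every C-SPION array. The group means were 11.64 ± 0.04 with C-SPIONs and 9.78 ± 2.28 in controls (SD, n = 3 each). The difference was 1.86 on the log2 scale, or 3.62-fold, with a 95% interval of -0.51 to 4.22 (limma adjusted p = 0.483 over all 26192 clusters). Within the controls, control 3 was 13.5-fold above the mean log2 signal of controls 1 and 2. A second cluster annotated with the same genes gave 10.70, 10.85 and 11.03 in C-SPION arrays, against 7.07, 8.39 and 11.58 in controls, with a difference of 1.85 (limma adjusted p = 0.491). Both clusters put the 6 arrays in a like pattern, with control 1 lowest, control 2 next and control 3 highest.

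hsp-16.2 had log2 signals of 11.42, 11.47 and 11.65 in C-SPION arrays, against 8.64, 9.26 and 11.70 in controls 1, 2 and 3. Its C-SPION arrays again lay close together, and control 3 was just above the highest of them. Means were 11.51 ± 0.12 with C-SPIONs and 9.87 ± 1.62 in controls (SD, n = 3 each), with a difference of 1.65, or 3.13-fold (95% interval from limma -0.06 to 3.35, adjusted p = 0.411). Control 3 was 6.73-fold above controls 1 and 2.

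On the row of hsp-16.48 and hsp-16.49 the C-SPION arrays had 11.80, 11.70 and 11.97 and the controls 9.0, 9.85 and 12.11. The order of the controls was that seen on the other bright hsp-16 rows. Means were 11.82 ± 0.14 with C-SPIONs and 10.32 ± 1.61 in controls (SD, n = 3 each), with a difference of 1.5, or 2.83-fold (95% interval from limma -0.19 to 3.20, adjusted p = 0.438). Control 3 was 6.43-fold above controls 1 and 2. The 2 clusters annotated with this pair held equal values on all 6 arrays, so they are 1 measurement and not 2.

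hsp-16.41 stood apart from the other hsp-16 rows. Its signals were 3.1, 3.19 and 3.11 in C-SPION arrays, against 2.68, 3.26 and 3.81 in controls. All 6 values were below the median of all clusters on their array, which ran from 4.90 to 5.16 in C-SPION arrays and from 5.04 to 5.19 in controls. Control 3 was the highest array here too, by 0.84 over controls 1 and 2, but the C-SPION arrays lay between controls 1 and 2. The difference was -0.12 (95% interval -0.83 to 0.59, limma adjusted p = 0.898), and it was +0.16 without control 3. Control 3 was 2.19-fold above control 1 on hsp-16.41 and 8.34-fold above it on the neighbouring hsp-16.2. Whether this cluster was above background is unknown, since detection calls were not used here.

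**Figure D1:**
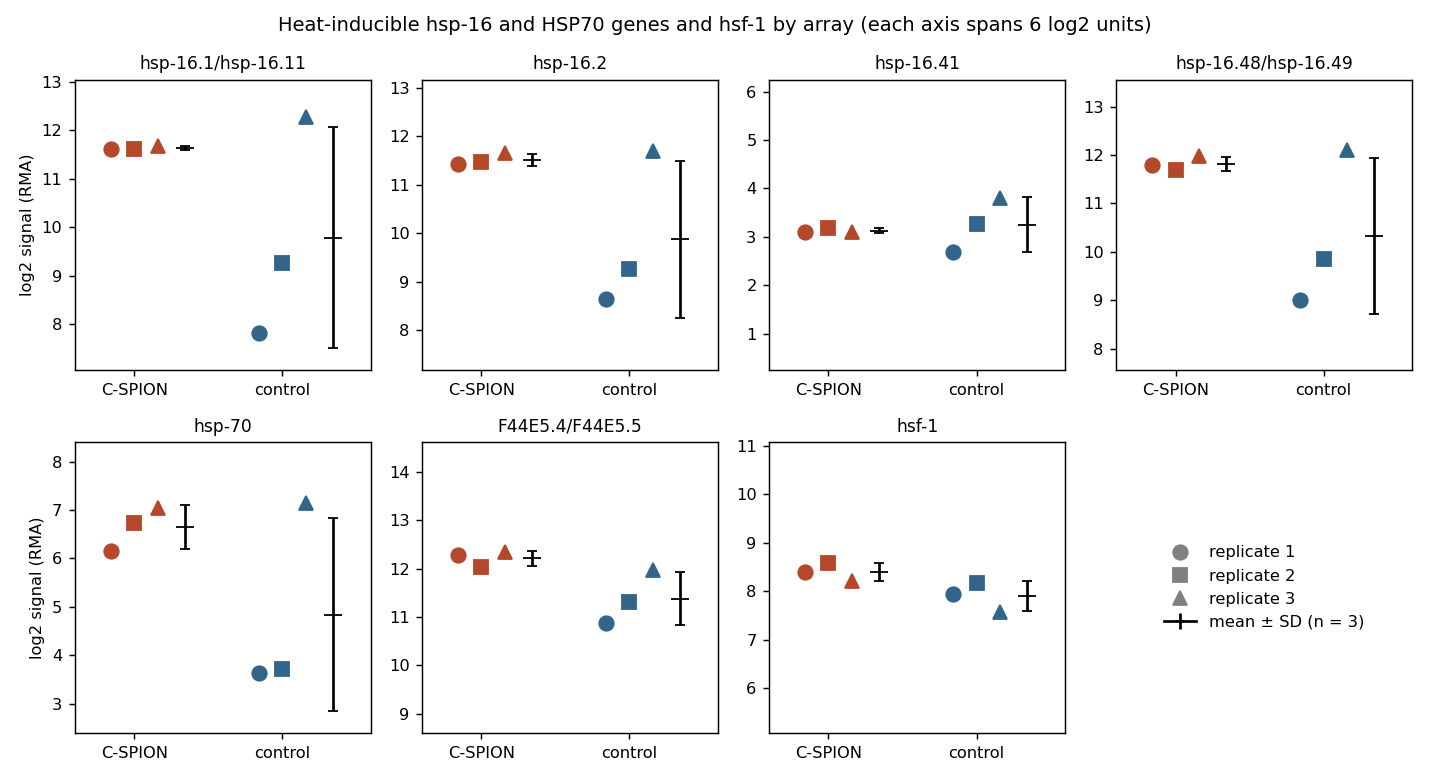
Log2 RMA signal of the 7 rows in each array, C-SPION arrays left and controls right, with symbols for the replicate numbers and bars for the mean ± SD (n = 3); each vertical axis spans 6 log2 units. On hsp-16.1/hsp-16.11, hsp-16.2, hsp-16.48/hsp-16.49 and hsp-70, controls 1 and 2 lie far below control 3. There control 3 is above every C-SPION array, though only just on hsp-16.2 and hsp-70, while hsf-1 has its lowest value in control 3.

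Among the HSP70 genes, hsp-70 had log2 signals of 6.15, 6.74 and 7.05 in C-SPION arrays, against 3.64, 3.72 and 7.15 in controls 1, 2 and 3. Controls 1 and 2 both lay below the median of all clusters on their arrays, in the range of hsp-16.41, and were not shown to be above background. Control 3 was 11.1-fold above their mean signal, and this and the other hsp-70 folds below, which rest on those arrays, may understate the difference in transcript. The group means were 6.65 ± 0.46 with C-SPIONs and 4.84 ± 2.00 in controls (SD, n = 3 each), with a difference of 1.81, or 3.51-fold (95% interval from limma -0.33 to 3.95, adjusted p = 0.455). Here the C-SPION arrays were less alike than on the bright hsp-16 rows, spanning 0.90.

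The row of F44E5.4 and F44E5.5 behaved less extremely. It had 12.27, 12.03 and 12.34 in C-SPION arrays, against 10.87, 11.30 and 11.97 in controls, so control 3 was the highest control but stayed below every C-SPION array. Means were 12.21 ± 0.16 with C-SPIONs and 11.38 ± 0.55 in controls (SD, n = 3 each), with a difference of 0.83, or 1.78-fold (95% interval from limma 0.11 to 1.55, adjusted p = 0.358). A second cluster with the same 2 symbols had 2.04, 2.45 and 2.27 in C-SPION arrays and 2.14, 2.00 and 2.88 in controls, with a difference of -0.09. These 2 clusters lay at least 8.73 log2 units apart on every array, and the values above rest on the brighter of them.

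hsf-1 did not follow its target genes from array to array. It had 8.40, 8.58 and 8.21 in C-SPION arrays, against 7.95, 8.18 and 7.57 in controls 1, 2 and 3. The groups did not overlap, and the lowest value was that of control 3, the control with the highest heat shock gene signals. Means were 8.40 ± 0.19 with C-SPIONs and 7.90 ± 0.31 in controls (SD, n = 3 each), with a difference of 0.50, or 1.41-fold (95% interval from limma -0.05 to 1.05, adjusted p = 0.432). Control 3 was 0.49 below controls 1 and 2. HSF-1 is largely regulated as a protein, which these arrays do not measure.

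By limma, 0 of the 7 rows had an adjusted p under 0.05, as had 0% of all clusters tested. At an unadjusted p under 0.05 there was 1 of the 7 rows, F44E5.4/F44E5.5, where 5.22% of all clusters were higher with C-SPIONs and 7.3% lower. On 2 of the 7 rows the groups lay apart with C-SPION higher, as they did on 9.4% of all clusters, and on 0 rows with C-SPION lower, as on 9.24%. In all, 6 rows had a difference above 0, as had 53.6% of all clusters, and the median difference was 1.5 over the 7 rows and 0.04 over all clusters. Since the genes were chosen with earlier results of these data known, these counts describe the genes and support nothing further. Ranked by difference among the 26192 clusters, hsp-16.1/hsp-16.11 was at position 17, hsp-70 at 24, hsp-16.2 at 45 and hsp-16.48/hsp-16.49 at 73. F44E5.4/F44E5.5 was at 871, hsf-1 at 3466 and hsp-16.41 at 16896. On the first 4 of these rows the SD ran from 0.04 to 0.46 over the C-SPION arrays and from 1.61 to 2.28 over the controls.

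Without control 3, the 3 C-SPION arrays against controls 1 and 2 gave larger differences on the bright hsp-16 rows, hsp-70 and F44E5.4/F44E5.5. Their intervals were narrower. The difference was 3.11 for hsp-16.1/hsp-16.11, or 8.61-fold (95% interval 2.03 to 4.18, limma adjusted p = 0.153), and 2.97 for hsp-70, or 7.82-fold in signal (2.20 to 3.73, limma adjusted p = 0.105), both controls then being dim values. It was 2.56 for hsp-16.2, or 5.91-fold (1.93 to 3.20, limma adjusted p = 0.105), and 2.40 for hsp-16.48/hsp-16.49, or 5.27-fold (1.65 to 3.15, limma adjusted p = 0.153). F44E5.4/F44E5.5 was at 1.13, or 2.19-fold (0.55 to 1.71, limma adjusted p = 0.213), while hsf-1 fell from 0.50 to 0.33 (-0.21 to 0.87, limma adjusted p = 0.600). Still 0 of the 7 rows passed, as did 0% of all clusters, and 5 rows had an unadjusted p under 0.05 with C-SPION higher, as had 4.54% of all clusters. Control 3 was left out because it stood apart on these same genes, so the smaller p-values are no separate evidence. Leaving out control 1 in its place brought the differences down to 0.87 for hsp-16.1/hsp-16.11, 1.03 for hsp-16.2, 0.84 for hsp-16.48/hsp-16.49, 1.21 for hsp-70 and 0.58 for F44E5.4/F44E5.5. Without control 2 that of hsp-70 was 1.25. The size of the difference thus rested on which controls it was set against.

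**Figure D2:**
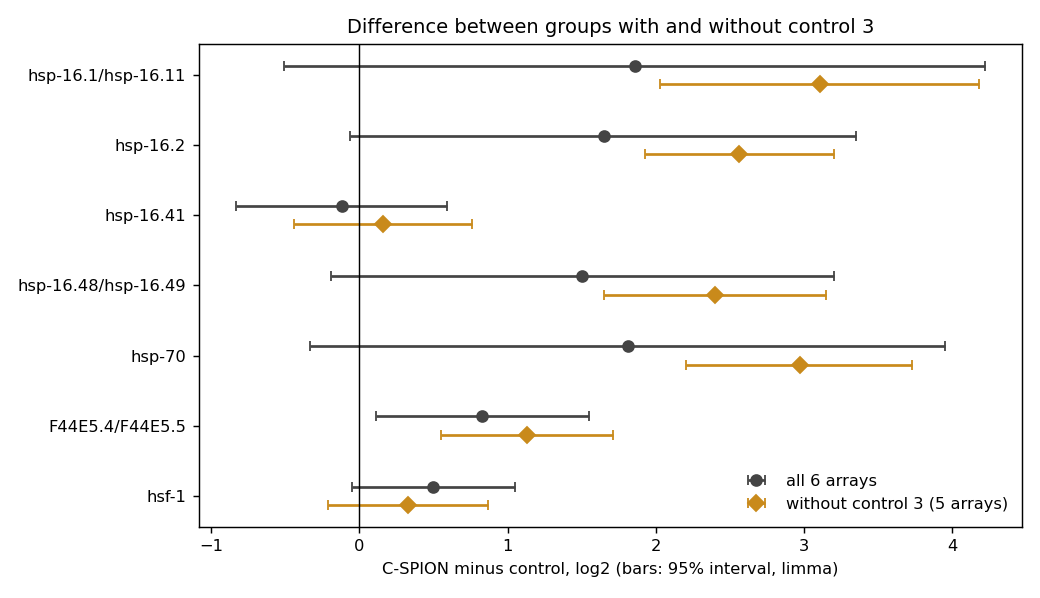
Log2 difference of C-SPION minus control for the 7 rows, with the 95% interval of the limma fit, from all 6 arrays (circles) and without control 3 (diamonds). Without control 3, hsp-16.1/hsp-16.11 is at 3.11 and hsp-70 at 2.97, in place of 1.86 and 1.81, and hsp-16.41 changes sign from -0.12 to 0.16.

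Control 3 was above both other controls on 6 of the 7 rows, hsf-1 being the exception, and at least 1 log2 unit above both on 4 of them. On 3.28% of all clusters control 3 was at least 1 above both other controls, and on 2.3% at least 1 below both. The like shares for the other arrays within their group were 2.36% above and 0.615% below for control 1, 0.783% and 1.64% for control 2, 5.24% and 2.18% for C-SPION 1, 1.47% and 3.18% for C-SPION 2, and 1.51% and 0.935% for C-SPION 3. Control 3 was therefore not the array that most often stood apart over the whole table, which was C-SPION 1. By control 3 minus the mean of controls 1 and 2, hsp-16.1/hsp-16.11 was at position 4 of 26192 clusters, hsp-70 at 9, hsp-16.2 at 33 and hsp-16.48/hsp-16.49 at 43, whereas F44E5.4/F44E5.5 was at 1750, hsp-16.41 at 1943 and hsf-1 at 21417. Control 1 was below control 2 on all 7 rows, by 1.44 for hsp-16.1/hsp-16.11, 0.85 for hsp-16.48/hsp-16.49 and 0.62 for hsp-16.2. How often control 3 was above both other controls by any amount, or control 1 below control 2, was not counted over all clusters. The counts of 6 and 7 rows are therefore a description and nothing more. These are single arrays of 1 group, so no test was made between them.

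Tissue markers also differed between the arrays, and their part in the heat shock values was not tested. RMA gives every marker a value on every array, so none stood at 0, and detection is unknown. The mean of 4 embryo markers was 4.16 to 5.05 in C-SPION arrays, against 3.88, 4.09 and 4.89 in controls 1, 2 and 3, and 4 of 4 were higher in control 3 than in both other controls. The mean of 4 hypodermis markers was 5.32 to 5.76 with C-SPIONs, against 5.05, 5.07 and 5.64 in controls. The rise in control 3 rested on part of this list. bli-1 and rol-6, below the median of all clusters on every array, differed from controls 1 and 2 by 0.00 and 0.11, and dpy-7 and col-19 by 1.09 and 1.13. By contrast, 5 germ line markers averaged 8.59 to 8.84 with C-SPIONs and 8.18, 8.25 and 7.39 in controls, and 4 oocyte markers 8.25 to 8.68 and 7.78, 7.90 and 7.33, so control 3 was the lowest control there. The mean of 5 neuron markers was 6.07 to 6.66 with C-SPIONs, against 7.45, 7.67 and 7.03 in controls 1, 2 and 3, and that of 4 body wall muscle markers 8.37 to 8.80, against 9.08, 9.62 and 8.92. For 4 intestine markers it was 7.02 to 7.23 with C-SPIONs, against 7.62, 7.55 and 7.20 in controls, and for 4 sperm markers 5.20 to 5.38, against 4.41, 4.72 and 4.84. The markers of these lists did not all go 1 way. In intestine elt-2 and ges-1 had differences of C-SPION minus control of 0.32 and 0.15, but ifb-2 and act-5 of -0.82 and -1.01. In sperm 3 were above 0 and 1, spe-9, was at -0.22. Control 3 was the control nearest to the C-SPION mean on 6 of the 8 marker lists and the farthest on 2, germ line and oocyte. Among the embryo markers, end-1, an embryonic endoderm gene picked after its value was seen, was 1.94 higher in control 3 than in controls 1 and 2. The others differed less, end-3 by 0.21 and pes-10 and tbx-37 by 0.75 each.

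The wider HSP70 and HSP90 machinery, with which the inducible chaperones work, differed less. Of its 14 measured genes 0 passed, 12 had a difference above 0 and 2 below, where 53.6% of all clusters were above 0. The median difference was 0.28, where the median over all clusters was 0.04. sti-1, which encodes the co-chaperone that links HSP70 to HSP90, had 8.11, 8.65 and 8.73 in C-SPION arrays, against 7.69, 7.75 and 7.44 in controls, which gave a difference of 0.87 (with a 95% interval of 0.31 to 1.43, limma adjusted p = 0.3). Its groups did not overlap, and control 3 was its lowest array. hsp-1, the constitutive cytosolic HSP70, had 11.41, 11.50 and 11.36 with C-SPIONs and 10.86, 11.05 and 11.09 in controls, a difference of 0.42 (limma adjusted p = 0.408). The HSP90-associated phosphatase gene pph-5 was at 0.54 and ahsa-1, whose product stimulates HSP90, at 0.42, each with its lowest array in control 3. Outside the naming rule, and picked after their values were seen, hsp-110 and dnj-13 had the control order of the hsp-16 rows. This order was not particular to them. hsp-1, bag-1 and chn-1 had it too, over control ranges of 0.23, 0.18 and 0.44. hsp-110, an HSP70 partner that releases nucleotide, had 8.65, 9.12 and 8.99 in C-SPION arrays and 7.64, 8.58 and 9.23 in controls, a difference of 0.44 (limma adjusted p = 0.682). dnj-13, a DnaJ co-chaperone, had 8.05, 8.53 and 8.50 in C-SPION arrays and 7.45, 7.99 and 8.36 in controls, a difference of 0.43 (limma adjusted p = 0.570). Without control 3 the differences were 0.81 for hsp-110, 0.64 for dnj-13 and 0.27 for pph-5.

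With all 6 arrays the other small heat shock protein genes lay mostly the other way. Of 10 measured, 0 passed, 8 had a difference below 0 and 2 above, where 53.6% of all clusters were above 0. The median was -0.24, or -0.17 after centring each array on its median, and -0.11 without control 3. The split rested in part on control 3. Without it hsp-12.1, hsp-43 and hsp-16.21, named here for this change, turned above 0, to 0.25, 0.21 and 0.36. The 4 with the smallest p were hsp-12.3 at -0.54, hsp-12.2 at -0.51, hsp-17 at -0.51 and hsp-12.6 at -0.35, with limma adjusted p from 0.406 to 0.480. Groups lay apart with C-SPION lower on these 4 of the 10, as on 9.24% of all clusters. They lay apart with C-SPION higher on 1, sip-1 at 0.28, as on 9.4% of all clusters. Genes picked by smallest p tend to have groups that lie apart, so this is a description. hsp-12.6 is a target of the insulin pathway factor DAF-16. The family members hsp-16.20 and hsp-16.21, named here after their values were seen, shared only part of the hsp-16 pattern. hsp-16.20 had 6.78, 7.69 and 7.43 in C-SPION arrays, against 7.27, 7.84 and 8.94 in controls. hsp-16.21 had 2.92, 3.43 and 3.08 in C-SPION arrays and 2.64, 2.93 and 4.24 in controls. Control 3 was highest on both, but the C-SPION arrays did not share its level.

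No gene that acts on HSF-1 or with it passed. Of 8 measured, 0 passed, 1 had a difference above 0 and 7 below, where 53.6% of all clusters were above 0. The median was -0.10, or -0.02 after centring each array on its median. ccar-1, whose product restrains the heat shock response, had 7.70, 8.05 and 8.21 in C-SPION arrays and 7.56, 7.32 and 7.47 in controls, which gave a difference of 0.54 (with a 95% interval of 0.03 to 1.04, limma adjusted p = 0.380). ddl-2, which encodes a part of the complex that holds HSF-1 inactive, was at -0.34, daf-16, the insulin pathway transcription factor, at -0.28 and jmjd-3.1, a histone demethylase gene, at -0.14. Outside the naming rule, and picked after its value was seen, the binding protein gene hsb-1, which also holds HSF-1 inactive, was at -0.02 (95% interval -0.61 to 0.57).

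**Figure D3:**
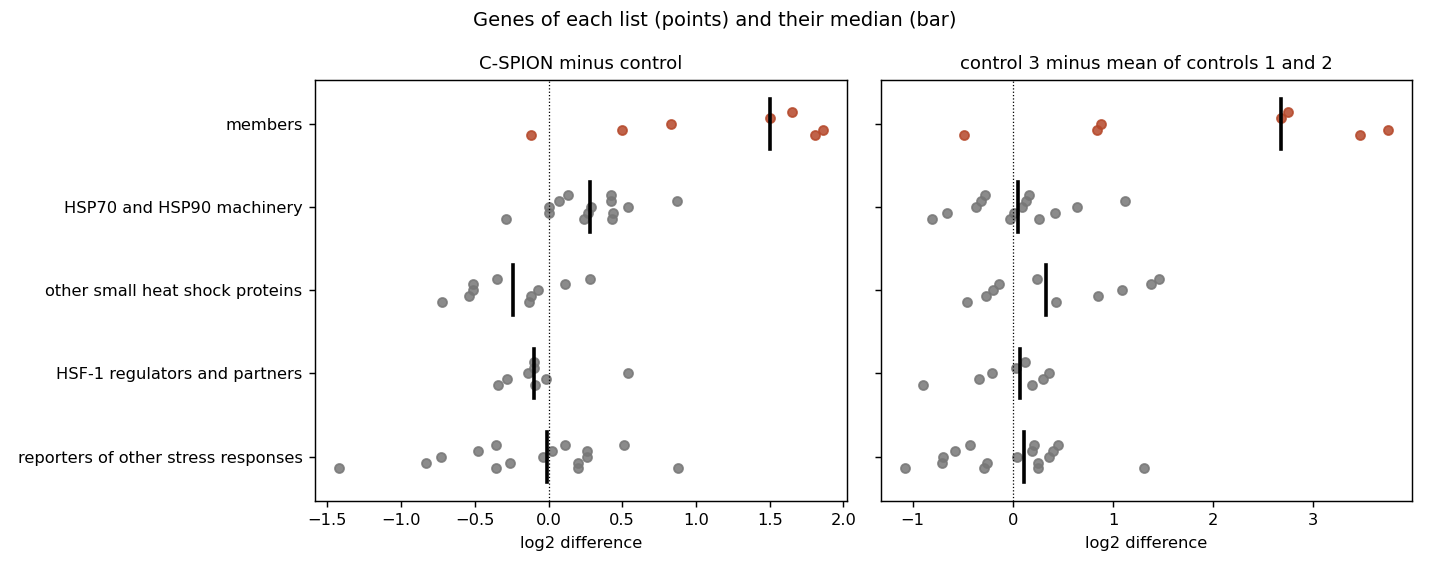
Each point is 1 gene (for the members, 1 of 7 rows), placed by its difference of C-SPION minus control (left, log2) and of control 3 minus the mean of controls 1 and 2 (right), with a bar at the list's median. The members' medians are 1.5 and 2.68, and those of the HSP70 and HSP90 machinery, the other small heat shock proteins, the HSF-1 regulators and partners and the reporters of other stress responses lie between -0.24 and 0.28 on the left and between 0.05 and 0.34 on the right.

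Genes commonly used to report other stress responses differed in both directions. Of 16, 0 passed, 8 had a difference above 0 and 8 below, and the median was -0.01, or 0.06 after median centring. Of the mitochondrial chaperone genes, hsp-60 was at 0.88 (limma adjusted p = 0.303) and hsp-6 at 0.20, and hsp-4, the HSP70 of the endoplasmic reticulum that reports its unfolded protein response, at 0.51 (limma adjusted p = 0.394). Of these, hsp-60 had its lowest signal, 8.04, in control 3. The oxidative stress reporters gst-4 and sod-3 were at -0.36 and -0.83 and gcs-1 at 0.26. The osmotic reporters gpdh-1 and hmit-1.1 were at -0.04 and 0.26, the metal-responsive mtl-1 and cdr-1 at 0.11 and -0.26, and the intracellular pathogen reporter pals-5 at 0.02. The immune and epidermal reporters sysm-1, irg-1 and nlp-29 were at -1.42, -0.36 and -0.73. Of the hypoxia reporters, cysl-2 was at 0.20 and nhr-57 at -0.48. nhr-57 had 7.65, 7.22 and 7.21 in C-SPION arrays, against 7.38, 7.42 and 8.71 in controls, so control 3 was high on it while the C-SPION arrays were not, and the difference without control 3 was -0.04. Of the 16 genes, control 3 was above both other controls on 7 and below both on 7. Controls 1 and 2 both lay below the other 4 arrays for 4 of the 16 (cysl-2, hsp-4, hsp-6 and mtl-1), with gaps of 0.05 to 0.2. They did so on 5 of the 7 heat shock rows, with gaps of 0.67 to 2.43, and on 8.8% of all clusters. This order was chosen for counting after it had been seen, so the counts are a description.

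To find genes with a like pattern, every gene was centred on its mean over the 6 arrays and set against the mean of the 6 hsp-16 genes, which stood at 0.65, 0.64 and 0.77 in C-SPION arrays and at -2.08, -1.12 and 1.14 in controls. That mean was taken over genes, so a row shared by a pair of genes had 2 times the weight of hsp-16.2 or hsp-16.41. Likeness was the root mean square difference over the 6 arrays, in log2 units, among 25474 other genes, whose median was 1.21. hsp-16.48/hsp-16.49 lay 0.09 from that mean, hsp-16.2 0.17 and hsp-16.1/hsp-16.11 0.44, as parts of it, and hsp-70, not part of it, lay 0.48 away. F44E5.4/F44E5.5 lay 0.70 away, hsp-16.41 0.99 and hsf-1 1.19. Of the 25474 other genes, 9 came within 0.5. The nearest 8 were a noncoding RNA gene (cluster 18530889) at 0.23, R12E2.18 at 0.26, nhr-17 at 0.31, Y47H9A.3 at 0.34, Y47H9A.4 at 0.36, R11A5.3 at 0.43, F35E12.11 at 0.43 and fbxb-33 at 0.44. In the reference 5 of these are noncoding RNA genes and 3 encode proteins, none of them a chaperone by name. Y47H9A.3 and Y47H9A.4 are listed at the same place. Each had its own cluster, with 9.49 and 9.74 in control 2, and whether these measure separate transcripts is unknown.

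The values of these genes ran closely beside those of the hsp-16 rows. nhr-17, a nuclear hormone receptor gene, had 9.94, 9.88 and 9.82 in C-SPION arrays, against 6.80, 7.67 and 10.86 in controls 1, 2 and 3. The noncoding RNA gene of cluster 18530889 had 9.62, 10.04 and 10.27 in C-SPION arrays and 7.58, 8.01 and 10.38 in controls. For both, controls 1 and 2 were low and control 3 was highest, and control 3 was the highest array for 7 of the 8 genes. The exception was fbxb-33, an F-box gene, with 5.43, 5.28 and 6.01 in C-SPION arrays and 3.46, 3.26 and 5.46 in controls. As with the hsp-16 rows, their differences of 0.89 to 1.51 did not pass, with limma adjusted p from 0.371 to 0.578. The genes were picked for this pattern, so their values are a description.

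**Figure D4:**
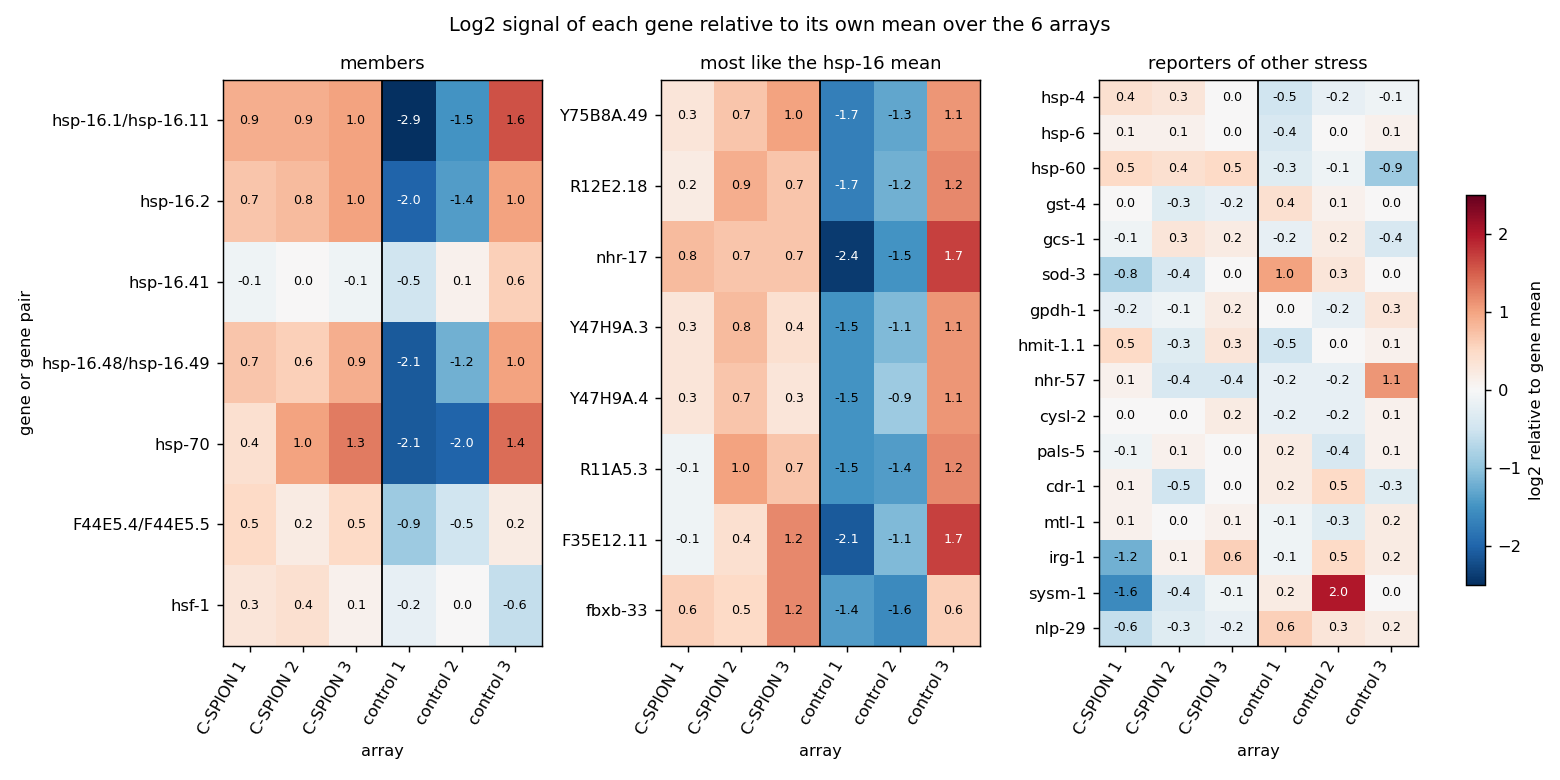
Log2 signal of each gene relative to its own mean over the 6 arrays, C-SPION arrays left of the line and controls right of it, for the members (left), the 8 genes most like the hsp-16 mean (middle) and 16 reporters of other stress responses (right). The bright hsp-16 rows, hsp-70 and the 8 like genes are low in controls 1 and 2 alone; 4 of the 16 reporters also have their lowest values there, by gaps of 0.05 to 0.2.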

How the data were processed

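Total RNA (200 ng per sample) was amplified to biotin-labelled cDNA and hybridised to 1-colour arrays, as the labels' protocols describe. The log2 signals deposited by the authors have 2 decimals, 1 value per transcript cluster and array, and come from RMA run in Affymetrix Expression Console, as the submitters' processing notes name it. Its version was not given in any source used here. Scanner files and detection calls were not used here, so signal over background is unknown, and 3 arrays per group limit the precision. The third control was placed by its title, since its source name repeats that of the second.

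Of 29317 clusters, 26192 carry a gene symbol in the platform annotation (25546 carry 1 and 646 several), and these were tested. Symbols were updated through gene identifiers to RefSeq assembly WBcel235. Values were compared with limma 3.58.1 under R 4.3.3 (a two-sided moderated test of the group term from lmFit and eBayes), adjusted by Benjamini-Hochberg over all tested clusters, with a threshold of 0.05. The code was tested on simulated data. Nothing in the labels says that the samples of a group were separate cultures, so the p-values reflect only the spread between samples, which may be technical.

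The members and lists were chosen with earlier results of these data known. Named genes were the members, up to 4 of each pathway list by smallest unadjusted p, all stress reporters and the 8 nearest genes. Clusters with several symbols were tested with the rest, and members and list genes were read from their brightest cluster, shared or not. Only the search for the nearest genes left such clusters out as candidates. Planned searches of promoters and comparison of proteins were not made, because no sequences were at hand. Alternatives were other normalisations, a filter on dim clusters, all clusters tested, other eBayes options, array weights, other clusters of a gene, a replicate block and leaving out each array.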

Additional observations from a re-analysis of the deposited data

How the results depend on the processing

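For hsp-16.1/hsp-16.11, hsp-16.2, hsp-16.48/hsp-16.49, hsp-70 and hsf-1 the difference kept its sign under every alternative run, with ranges of 0.87 to 3.11, 1.03 to 2.56, 0.84 to 2.40, 1.21 to 2.97 and 0.33 to 0.64, and adjusted p from 0.105 to 0.724. hsp-16.41 ran from -0.40 to 0.16 when 1 array was left out, turning to 0.16 without control 3, and turned to 0.03 with array weights, and F44E5.4/F44E5.5 to -0.09 on its dimmer cluster; the cause was not tested. hsp-16.41 had no value once dim clusters were left out. Leaving out 1 array gave 0 to 63 called clusters (63 without C-SPION 1) and 0 of the 7 rows in each case. The other alternatives gave 0 of both. At an adjusted p under 0.1 the main fit still called 0 clusters. Array weights moved hsp-70 to 2.59 and hsp-16.1/hsp-16.11 to 2.53. Same-numbered arrays deviated together at r = 0.222, 0.203 and 0.00786 across clusters, and arrays of unlike number at r from -0.266 to 0.0581. Whether the numbers mark pairs is unknown. The main fit did not take them as pairs, and a replicate block gave 0 called clusters and 0 of the 7 rows. When 1 array was left out or arrays were centred on their medians, the median difference ran from 0.22 to 0.35 for the HSP70 and HSP90 machinery, -0.41 to -0.11 for the other small heat shock proteins, -0.16 to -0.02 for the HSF-1 regulators and -0.11 to 0.09 for the stress reporters. When hsp-16.41 was left out of the hsp-16 mean, or its 4 rows were weighted equally, choices made after the data were seen, 7 of the 8 nearest genes were shared in either case. With the 4 rows weighted equally, hsp-16.48/hsp-16.49 lay 0.16 from the mean and hsp-70 0.54. The number of arrays, and the unknown signal over background of hsp-16.41 and of hsp-70 in controls 1 and 2, limit what can be detected.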
